A study of Homo sapiens with 8 samples.

Results

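The genes described here make cholesterol and fatty acids, sense and move sterols, or export them. They were taken from the deposited human gene count table by symbol, from a list of 31 names, and 31 of the 23354 genes in that table were found. The sterol branch held 22 of them: 15 enzymes from HMGCS1 to DHCR7, 5 genes of sterol sensing and transport, and the 2 efflux pumps ABCA1 and ABCG1. The fatty acid branch held 9 genes, from ACLY to LPIN1.

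RNA was sequenced from mesenchymal stromal cells that had been made from the human embryonic stem cell line H9 and grown in alpha-MEM with serum. The 3 osmolyte-frozen libraries came from cells frozen and thawed in the experimental solutions labelled SMC (2 h hold), SGC (1 h) and SGI (1 h), whose ingredients the labels do not spell out. The 2 DMSO-frozen libraries came from cells held for 1 h or 0 h with DMSO, the conventional cryoprotectant, and then frozen and thawed. The 3 fresh libraries came from unfrozen cells, taken at 0 h or held for 1 h, either with DMSO or in medium alone. Experimental solutions were cooled at 3 °C per min and DMSO at 1 °C per min, so solution and cooling rate cannot be told apart. Hold times also differed between the groups and were not adjusted for. No unfrozen library held an osmolyte solution, and only 1 of the 3 fresh libraries held DMSO. Every library was a condition of its own, the cells were of 1 line, and separate cultures are not stated. The p-values therefore measure only the spread between libraries within a group. That spread includes differences between its conditions, and the rest may be technical.

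Counts summed to between 41198716 and 51166666 per library. All 7 mesenchymal stromal markers were detected, with summed levels of 1650 to 1770 CPM (counts relative to the scaled library total) in osmolyte-frozen, 2400 to 2430 in DMSO-frozen and 2560 to 2710 in fresh libraries. Of these 7, 5 were lower and 1 higher in osmolyte-frozen than in DMSO-frozen cells, where 16.2% of all genes were lower and 13.1% higher. Of 3 markers that stromal cells lack, PTPRC and CD14 were too low to test, and the sum of the 3 was at most 2.49 CPM in any library. The other, CD34, was detected but passed no test between groups. It averaged 2.13 ± 0.153 CPM in osmolyte-frozen, 1.713 ± 0.258 in DMSO-frozen and 1.854 ± 0.209 in fresh cells (SD, n = 3, 2 and 3). The sum of 4 pluripotency markers was 6.26 to 8.72 CPM in osmolyte-frozen, 3.75 to 3.85 in DMSO-frozen and 4.22 to 5.01 in fresh libraries. SOX2 was too low to test. POU5F1 was 2.06-fold higher in osmolyte-frozen than in DMSO-frozen cells (adjusted p = 4.87e-04), at 4.80 ± 0.620 CPM in osmolyte-frozen and 2.33 ± 0.286 CPM in DMSO-frozen cells (SD, n = 3 and 2). The summed level of the nuclear RNAs MALAT1 and NEAT1 was 8370 to 9140 CPM in osmolyte-frozen, 4070 to 4560 in DMSO-frozen and 4710 to 5670 in fresh libraries. The part of these markers and RNAs in the results below was not tested. In bulk RNA, fewer cells of a kind and less RNA per cell cannot be told apart.

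Cells build cholesterol from acetyl-CoA through mevalonate, squalene and lanosterol, and fatty acids from citrate through malonyl-CoA. Both routes are controlled by the sterol regulatory element-binding proteins (SREBPs), transcription factors held in the endoplasmic reticulum by SCAP and INSIG proteins when sterols are plentiful and cut free by proteases in the Golgi when sterols are scarce. SREBP-2, from SREBF2, acts mainly on sterol genes and SREBP-1, from SREBF1, mainly on fatty acid genes. Stromal cells use both products for membranes, and they store more lipid when they turn into adipocytes.

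Per kilobase of the deposited coding length, the fatty acid branch held the most abundant members. That length is also listed for noncoding RNAs, at 8707 bases for MALAT1, so it is not coding sequence alone. FADS2, the delta-6 desaturase, had a mean level of 55.8 RPKM over the 8 libraries. SCD, which makes oleate from stearate, averaged 47.9 RPKM, and ACLY, which turns citrate into acetyl-CoA, averaged 43.5 RPKM. In the sterol branch FDFT1, which makes squalene, and FDPS, which makes farnesyl diphosphate, came next at 30.1 and 29.7 RPKM. The least abundant tested members were MVK (mevalonate kinase) at 3.94, TM7SF2 (a sterol C14 reductase) at 3.17, ABCA1 at 2.48 and HSD17B7 (a 3-keto sterol reductase) at 0.739 RPKM. ABCG1 had 2 counts in the fresh 0 h library and 0 in the other 7, and was not tested. A count of 0 allows a level of up to 0.118 to 0.147 CPM, depending on the library. The other 30 members passed the filter on low counts. In 20 of these 30 the highest library was under 1.5 times the lowest, from 1.12 times in ACSS2, an acetyl-CoA synthetase, to 1.49 times in SCAP. In the other 10 it was up to 2.58 times the lowest, in TM7SF2. The matching share of all genes under 1.5 times was not computed.

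**Figure D1:**
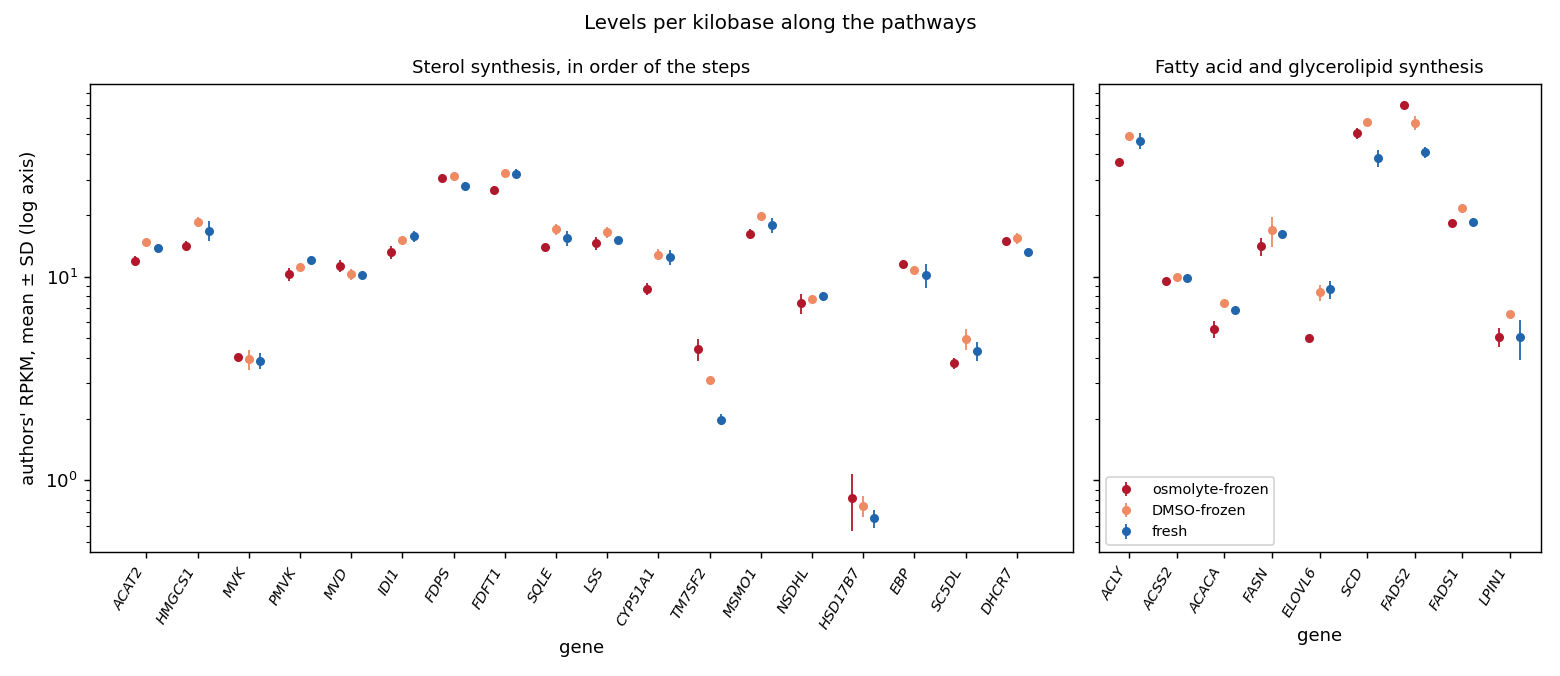
RPKM (log axis) of sterol synthesis enzymes in the order of their steps, and of the fatty acid and glycerolipid genes. Points are group means and bars SD over 3 osmolyte-frozen, 2 DMSO-frozen and 3 fresh libraries. The share of the RPKM total held by the counts differs between groups, so small group differences here can run against CPM. FDPS had 30.65 RPKM in osmolyte-frozen and 31.2 in DMSO-frozen cells, but 76.09 and 72.36 CPM. ACAT2, MSMO1 and SC5DL are enzymes of the route from outside the member list. TM7SF2 and HSD17B7 stand low in the sterol route, and FADS2 and SCD high in the fatty acid route.

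Against DMSO-frozen cells, osmolyte-frozen cells showed changes in 10 of the 30 tested members, where 29.3% of all genes changed. This comparison asks how the choice of freezing solution, with its cooling rate and hold times, is reflected in these genes after thaw. A gene was counted as changed when its adjusted p in edgeR's quasi-likelihood test fell under 0.05. In the sterol branch TM7SF2 and SREBF1 were higher and HMGCS1, CYP51A1, INSIG1 and SCAP were lower. In the fatty acid branch FADS2 was higher and ACLY, ACACA and ELOVL6 were lower. In all, 3 members were higher, where 13.1% of the 15924 genes tested were higher, and 7 were lower, where 16.2% of all genes were lower. Scaling by library totals in place of trimmed means moved the share of higher calls over all genes from 44.8% to 56.4%. No called member turned direction under it, but SCAP lost its call (adjusted p = 0.0625) and MVD gained one (adjusted p = 0.0278). The median log2 fold change was -0.08 over the members and 0.05 over all genes. Only 2 members (6.67%) were both changed and at least 1.5-fold apart, a share near the 9.49% of all genes. The 3 osmolyte-frozen libraries all lay above the 2 DMSO-frozen ones for 6 members and below them for 12, where 28.7% and 27.5% of all genes did so.

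Against fresh cells, osmolyte-frozen cells showed 6 members higher, where 18.6% of all genes were higher, and 8 lower, where 20.7% were lower. The higher ones were TM7SF2, DHCR7, SREBF1, STARD4, SCD and FADS2. The lower ones were HMGCS1, IDI1, FDFT1, CYP51A1, SCAP, ACLY, ACACA and ELOVL6. The median log2 fold change was 0.01 over the members and 0.02 over all genes. Members both changed and at least 1.5-fold apart numbered 4 (13.3%), against 14.5% of all genes. Changes in either direction were called for 14 of 30 members and for 39.4% of all genes. All osmolyte-frozen libraries lay above all fresh ones for 6 members and below them for 8, where 24.5% and 24.6% of all genes did so.

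DMSO-frozen cells had 4 members higher than fresh cells, TM7SF2, STARD4, SCD and FADS2, where 1.22% of all genes were higher. None was lower at an adjusted p under 0.05 in edgeR, where 0.603% of all genes were lower. DESeq2 likewise gave 4 members higher and 0 lower, where it called 2.38% of the 13763 genes it tested higher and 1.21% lower. At an unadjusted p under 0.05, edgeR gave 7 members higher and 0 lower, where 7.1% of all genes were higher and 5.65% lower. Changes in either direction were called for 1.82% of all genes. The median log2 fold change was 0.08 over the members and -0.01 over all genes. Both DMSO-frozen libraries lay above all fresh ones for 9 members and below them for 3, where 15.9% and 15.4% of all genes did so. The 3 comparisons share libraries, so they are not independent of each other. Across them, 15 members changed in at least 1 and 15 in none. The matching share of all genes was not computed, but 39.4% changed between osmolyte-frozen and fresh cells alone.

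**Figure D2:**
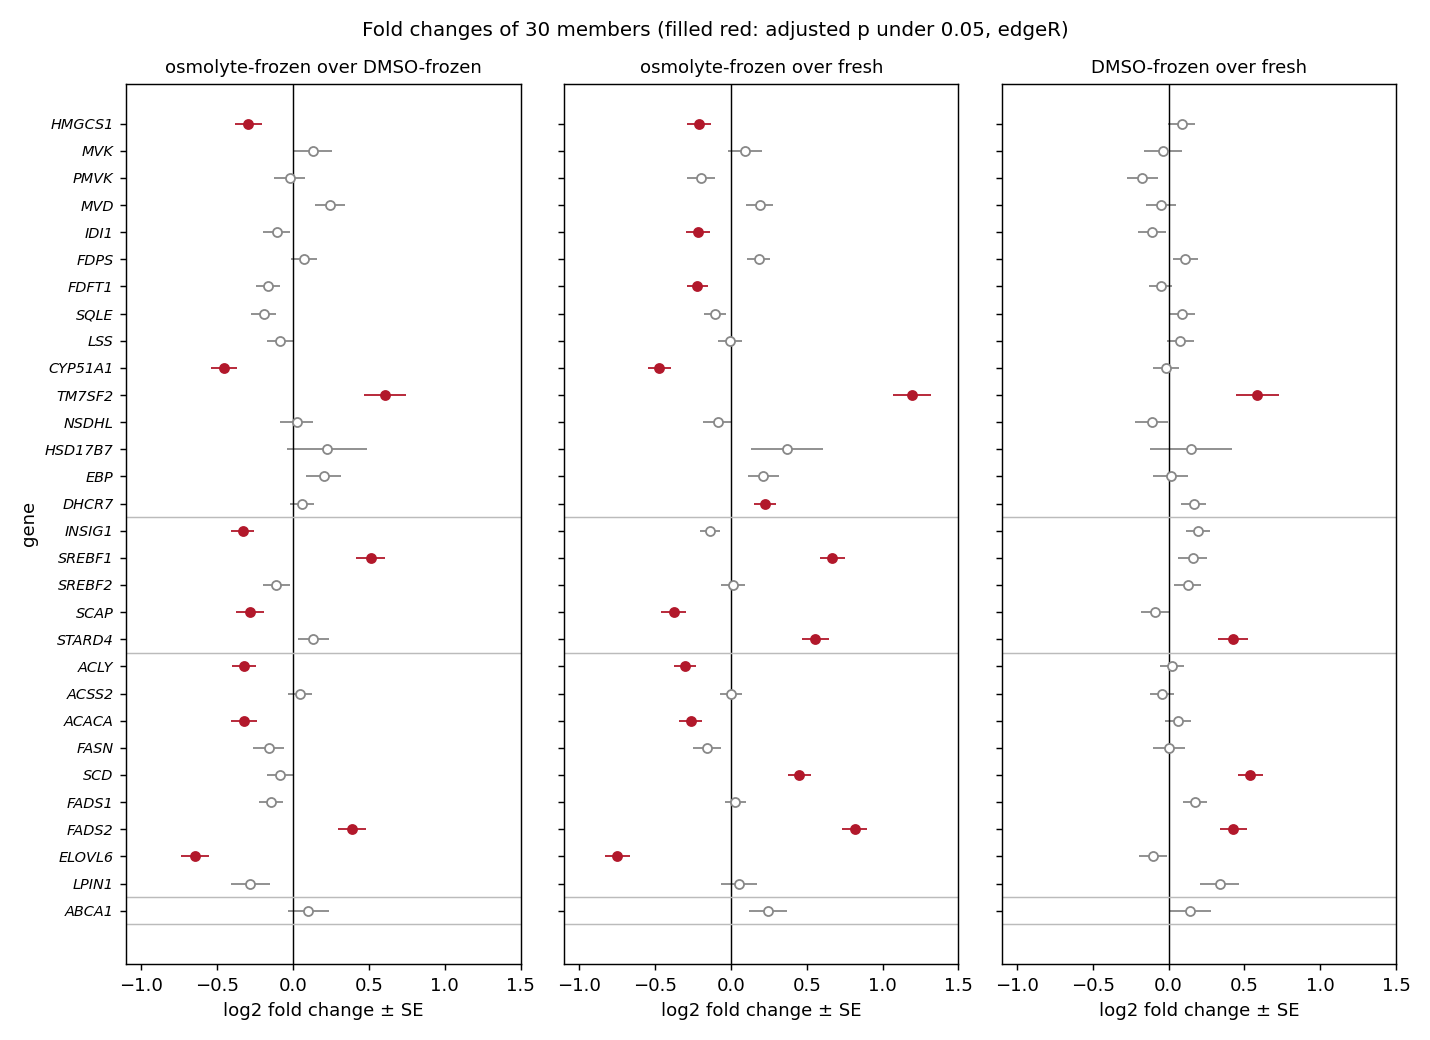
Log2 fold change ± SE of the 30 tested members in osmolyte-frozen over DMSO-frozen, osmolyte-frozen over fresh and DMSO-frozen over fresh libraries. Filled red points have an adjusted p under 0.05 (edgeR). ELOVL6 lies lowest in the left and middle panels, at -0.65 and -0.75, and TM7SF2 highest in the middle panel, at 1.19.

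In the sterol sensing machinery, osmolyte-frozen cells had more SREBF1 transcript and less INSIG1 and SCAP than DMSO-frozen cells, with little difference in SREBF2. Levels below are CPM, listed as SMC, SGC and SGI, then DMSO after 1 h and 0 h, then fresh 0 h, fresh 1 h DMSO and fresh 1 h medium. SREBF1 (chromosome 17, 17714663 to 17740325, hg19) stood at 71.6, 70.5 and 71.5 CPM in osmolyte-frozen, 55.2 and 44.8 in DMSO-frozen and 42.6, 42.9 and 48.8 in fresh cells. The osmolyte-frozen libraries lay above all others, and the other groups overlapped. SREBF1 was 1.42-fold higher than in DMSO-frozen cells (log2 0.51 ± 0.09 SE, adjusted p = 5.73e-04) and 1.59-fold higher than in fresh cells (log2 0.67 ± 0.08, adjusted p = 4.80e-06). DMSO-frozen cells did not pass the test against fresh cells (log2 0.16 ± 0.09, adjusted p = 0.51).

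INSIG1 (chromosome 7, 155089486 to 155101945), the protein that retains SCAP in the endoplasmic reticulum and is itself a classical SREBP target, had 44.1, 44.8 and 43.9 CPM in osmolyte-frozen, 55.3 and 56.1 in DMSO-frozen and 48.9, 48.9 and 48.4 in fresh cells. The groups did not overlap, with fresh cells in the middle and a spread within each group of under 1 CPM. INSIG1 was 1.26-fold lower in osmolyte-frozen than in DMSO-frozen cells (log2 -0.33 ± 0.08, adjusted p = 0.00307). It passed the test against fresh cells neither in osmolyte-frozen cells (log2 -0.14 ± 0.07, adjusted p = 0.121) nor in DMSO-frozen cells (log2 0.19 ± 0.08, adjusted p = 0.261).

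SCAP (chromosome 3, 47455184 to 47517445), the escort of the SREBPs to the Golgi, had 57.2, 52.7 and 53.0 CPM in osmolyte-frozen, 70.3 and 62.1 in DMSO-frozen and 67.2, 65.8 and 78.5 in fresh cells. All 3 osmolyte-frozen libraries were below the other 5. SCAP was 1.299-fold lower than in fresh cells (log2 -0.38 ± 0.08, adjusted p = 0.00125) and 1.22-fold lower than in DMSO-frozen cells (log2 -0.28 ± 0.09, adjusted p = 0.0242). The call against DMSO-frozen cells was lost without SGC (adjusted p = 0.0528), without SGI (0.0805) and without DMSO 1 h (0.245), and with library totals in place of trimmed means (0.0625). SREBF2 averaged 120.4 ± 10.3 CPM in osmolyte-frozen, 130.3 ± 12.5 in DMSO-frozen and 119.3 ± 4.89 in fresh cells (SD, n = 3, 2 and 3) and passed no test, with log2 fold changes of -0.11, 0.01 and 0.13 in the 3 comparisons.

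STARD4 (chromosome 5, 110834022 to 110848157), which carries cholesterol between membranes, was higher after freezing in either solution. It stood at 44.5, 45.4 and 46.5 CPM in osmolyte-frozen, 38.9 and 44.0 in DMSO-frozen and 34.4, 32.0 and 26.4 in fresh cells. Each frozen library was above each fresh one. STARD4 was 1.47-fold higher in osmolyte-frozen than in fresh cells (log2 0.56 ± 0.09, adjusted p = 8.55e-05) and 1.34-fold higher in DMSO-frozen cells than in fresh ones (log2 0.42 ± 0.10, adjusted p = 0.0303). The call of DMSO-frozen against fresh cells was lost without SGI (adjusted p = 0.058), DMSO 1 h (0.0775), DMSO 0 h (0.435), fresh 1 h DMSO (0.0509) or fresh 1 h medium (0.0864), and with library totals (0.0607) or only the 2 groups compared (0.0846). Between osmolyte-frozen and DMSO-frozen cells STARD4 passed no test (log2 0.13 ± 0.10, adjusted p = 0.333). It overlaps the uncharacterised transcript LOC100505678 by 234 bases. That transcript had 108.8 CPM in osmolyte-frozen, 64.7 in DMSO-frozen and 52.5 in fresh cells and was higher in osmolyte-frozen than in fresh cells (log2 1.05, adjusted p = 0.0048). The strand setting of the counting is not given in the sources used here, so reads in the shared bases may belong to either.

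Promoter windows of 250 bases before to 50 after the start, from RefSeq on GRCh38.p14, were found for 27 of the 31 members, as 38 windows. FDFT1, SQLE, FASN and ABCG1 had none in the table. A common form of the sterol regulatory element, TCACNCCAC on either strand, was in at least 1 window of 1.39% of the 27305 genes in the table (1.13% of 35116 windows) and, among the 27 members, in SREBF2 alone. CCAAT, the box bound by the SREBP partner NF-Y, was found on either strand in at least 1 window of 19 of the 27 members and of 39.7% of all genes (34.6% of windows). More than 1 window stood in the table for 8 members. A match is only a string in the window. Other forms of the sterol element and bases outside the windows were not searched, so a member without a match may still have one. Windows are printed for SREBF2, as the member with a match to the searched sterol element. They are also printed for INSIG1, as the sterol sensor that separated the 3 groups, and for TM7SF2, with the largest fold change against fresh cells. Capitals mark the sterol element and ATTGG, which is CCAAT read on the other strand. The windows lie at chr22:41832855-41833154, chr7:155297628-155297927 and chr11:65111622-65111921, all on the plus strand.
SREBF2: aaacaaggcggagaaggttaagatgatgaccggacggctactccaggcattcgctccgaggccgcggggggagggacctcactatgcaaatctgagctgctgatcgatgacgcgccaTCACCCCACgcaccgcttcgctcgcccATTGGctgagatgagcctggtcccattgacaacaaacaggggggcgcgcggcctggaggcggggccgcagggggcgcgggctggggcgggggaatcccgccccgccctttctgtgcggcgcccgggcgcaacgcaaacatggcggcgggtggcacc
INSIG1: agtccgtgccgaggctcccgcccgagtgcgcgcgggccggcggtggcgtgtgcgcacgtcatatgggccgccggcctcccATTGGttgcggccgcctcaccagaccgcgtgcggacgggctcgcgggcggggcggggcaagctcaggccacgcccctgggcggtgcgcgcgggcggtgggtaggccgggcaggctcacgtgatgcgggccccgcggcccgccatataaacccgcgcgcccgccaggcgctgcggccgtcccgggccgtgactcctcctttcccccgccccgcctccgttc
TM7SF2: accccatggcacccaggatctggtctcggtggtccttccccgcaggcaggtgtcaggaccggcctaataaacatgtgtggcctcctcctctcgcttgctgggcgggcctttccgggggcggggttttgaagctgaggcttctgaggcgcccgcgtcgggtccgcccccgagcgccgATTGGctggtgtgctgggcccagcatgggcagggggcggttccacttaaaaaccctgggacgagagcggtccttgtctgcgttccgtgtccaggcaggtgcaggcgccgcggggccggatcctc
The sterol element TCACCCCAC in SREBF2 starts at position -133 from the transcription start, with a reversed CCAAT box at -106. INSIG1 has its box at -170 and TM7SF2 at -74.

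**Figure D3:**
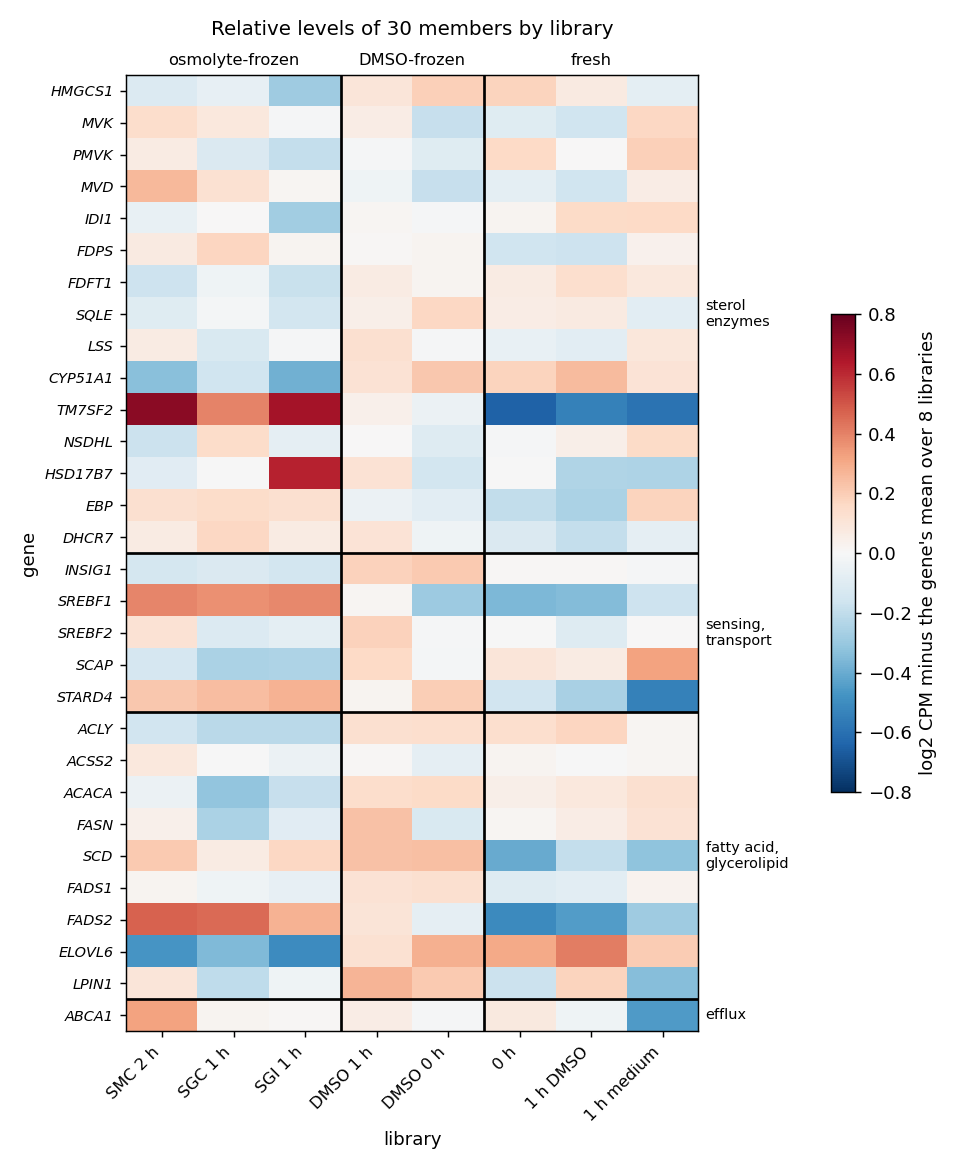
Log2 CPM of each of 30 members in each library, minus the gene's mean over the 8 libraries (colour scale from -0.8 to 0.8). Libraries are columns, with osmolyte-frozen left, DMSO-frozen in the middle and fresh right, and members are rows by role. TM7SF2, SREBF1 and FADS2 are high and CYP51A1, ACLY and ELOVL6 low in all 3 osmolyte-frozen libraries. HSD17B7 is high in SGI alone, at 2.47 CPM.

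Among the 15 sterol enzymes, osmolyte-frozen cells had 1 higher and 2 lower than DMSO-frozen cells and 2 higher and 4 lower than fresh cells. Over all genes, 13.1% were higher and 16.2% lower than in DMSO-frozen cells, and 18.6% were higher and 20.7% lower than in fresh cells. In DMSO-frozen cells 1 enzyme was higher than in fresh cells and 0 lower, where 1.22% of all genes were higher and 0.603% lower. TM7SF2 (chromosome 11, 64879341 to 64883707), the C14 reductase that follows lanosterol demethylation, had 11.4, 9.15 and 11.02 CPM in osmolyte-frozen, 7.13 and 6.71 in DMSO-frozen and 4.43, 4.78 and 4.61 in fresh cells. The groups stood apart as 3 steps. TM7SF2 was 2.29-fold higher in osmolyte-frozen than in fresh cells (log2 1.19 ± 0.13, adjusted p = 5.56e-07) and 1.52-fold higher than in DMSO-frozen cells (log2 0.61 ± 0.14, adjusted p = 0.00271). DMSO-frozen cells were 1.501-fold above fresh cells (log2 0.59 ± 0.14, adjusted p = 0.0309). That last call was lost without DMSO 1 h (adjusted p = 0.237), DMSO 0 h (0.157), fresh 0 h (0.0803), fresh 1 h DMSO (0.055) or fresh 1 h medium (0.0625), and with library totals (0.0529) or only the 2 groups compared (0.0547). Its neighbours on the chromosome, C11orf2 at 160 bases and ZNHIT2 at 167 bases, passed no test in any comparison.

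CYP51A1 (chromosome 7, 91741463 to 91764059), the lanosterol demethylase just before TM7SF2, went the other way. It had 42.1, 47.4 and 40.7 CPM in osmolyte-frozen, 57.3 and 61.7 in DMSO-frozen and 60.04, 63.3 and 57.1 in fresh cells. All osmolyte-frozen libraries were below the others, which overlapped. CYP51A1 was 1.37-fold lower than in DMSO-frozen cells (log2 -0.46 ± 0.09, adjusted p = 7.25e-04) and 1.39-fold lower than in fresh cells (log2 -0.47 ± 0.08, adjusted p = 1.06e-04). The annotation lists 3 pseudogenes of CYP51A1, to which some of its reads could have been assigned.

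HMGCS1 (chromosome 5, 43289493 to 43313595), the synthase at the entry of the mevalonate route, had 77.0, 79.4 and 68.1 CPM in osmolyte-frozen, 88.9 and 94.9 in DMSO-frozen and 93.8, 87.3 and 78.5 in fresh cells. It was 1.23-fold lower than in DMSO-frozen cells, without overlap (log2 -0.30 ± 0.09, adjusted p = 0.0193), and 1.16-fold lower than in fresh cells, with overlap (log2 -0.21 ± 0.08, adjusted p = 0.0482). Neither HMGCS1 call held under every alternative. Against DMSO-frozen cells the call was lost without SGI (adjusted p = 0.0969) or DMSO 0 h (0.174). Against fresh cells it was lost without SGI (0.229), DMSO 1 h (0.0565), DMSO 0 h (0.0564), fresh 0 h (0.168) or fresh 1 h DMSO (0.108). It was also lost with library totals (0.0726), with group means of at least 50 counts (0.0731), with counts halved (0.0544) and with only the 2 groups compared (0.0619).

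IDI1, FDFT1 and DHCR7 passed the test only in osmolyte-frozen against fresh cells, and each call was lost when certain single libraries were left out. IDI1 (chromosome 10, 1085964 to 1095061), which isomerises isopentenyl diphosphate, had 43.8, 45.7 and 37.7 CPM in osmolyte-frozen, 46.1 and 45.3 in DMSO-frozen and 46.3, 50.7 and 51.0 in fresh cells. It was 1.16-fold lower in osmolyte-frozen than in fresh cells (log2 -0.22 ± 0.08, adjusted p = 0.0393), which was lost without SGI (0.224), fresh 1 h DMSO (0.114) or fresh 1 h medium (0.0806). The IDI1 call was also lost with library totals (0.0621), group means of at least 50 counts (0.0545) and only the 2 groups compared (0.0517). IDI1 shares 4178 bases with the antisense gene IDI2-AS1, whose level was 2.49 CPM in osmolyte-frozen, 1.55 in DMSO-frozen and 1.302 in fresh cells. FDFT1, the squalene synthase, had 82.6, 90.3 and 81.8 CPM in osmolyte-frozen, 96.7 and 94.1 in DMSO-frozen and 96.9, 101.7 and 98.3 in fresh cells. It was 1.17-fold lower in osmolyte-frozen than in fresh cells (log2 -0.22 ± 0.07, adjusted p = 0.0176), which was lost without SGI (0.0746) or fresh 1 h DMSO (0.0699). DHCR7 (chromosome 11, 71145457 to 71159477), the last reductase before cholesterol, had 58.9, 63.1 and 58.9 CPM in osmolyte-frozen, 60.8 and 55.0 in DMSO-frozen and 52.0, 49.4 and 53.4 in fresh cells. It was 1.17-fold higher in osmolyte-frozen than in fresh cells (log2 0.22 ± 0.07, adjusted p = 0.0204), which was lost without SGC (0.121), fresh 0 h (0.067) or fresh 1 h DMSO (0.0937).

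The other 9 sterol enzymes passed no test. SQLE, the squalene epoxidase, averaged 63.0 ± 2.96 CPM in osmolyte-frozen, 72.1 ± 4.11 in DMSO-frozen and 67.7 ± 3.94 in fresh cells (SD, n = 3, 2 and 3), a log2 fold change of -0.19 ± 0.08 against DMSO-frozen cells (adjusted p = 0.085). MVD, the mevalonate diphosphate decarboxylase, averaged 30.7 ± 2.62 CPM in osmolyte-frozen, 26.0 ± 1.902 in DMSO-frozen and 26.9 ± 2.03 in fresh cells, a log2 fold change of 0.24 ± 0.10 against DMSO-frozen cells (adjusted p = 0.0771). LSS, the lanosterol synthase, was nearly level at 105.1 ± 6.89 CPM in osmolyte-frozen, 111.4 ± 7.68 in DMSO-frozen and 105.5 ± 7.04 in fresh cells. MVK, PMVK (phosphomevalonate kinase), FDPS, NSDHL (a sterol C4 decarboxylase), HSD17B7 and EBP (the sterol isomerase) had log2 fold changes between -0.20 in PMVK and 0.37 in HSD17B7 over the 3 comparisons. FDPS has 8 annotated pseudogenes and HSD17B7 has 2, so their counts are uncertain.

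**Figure D4:**
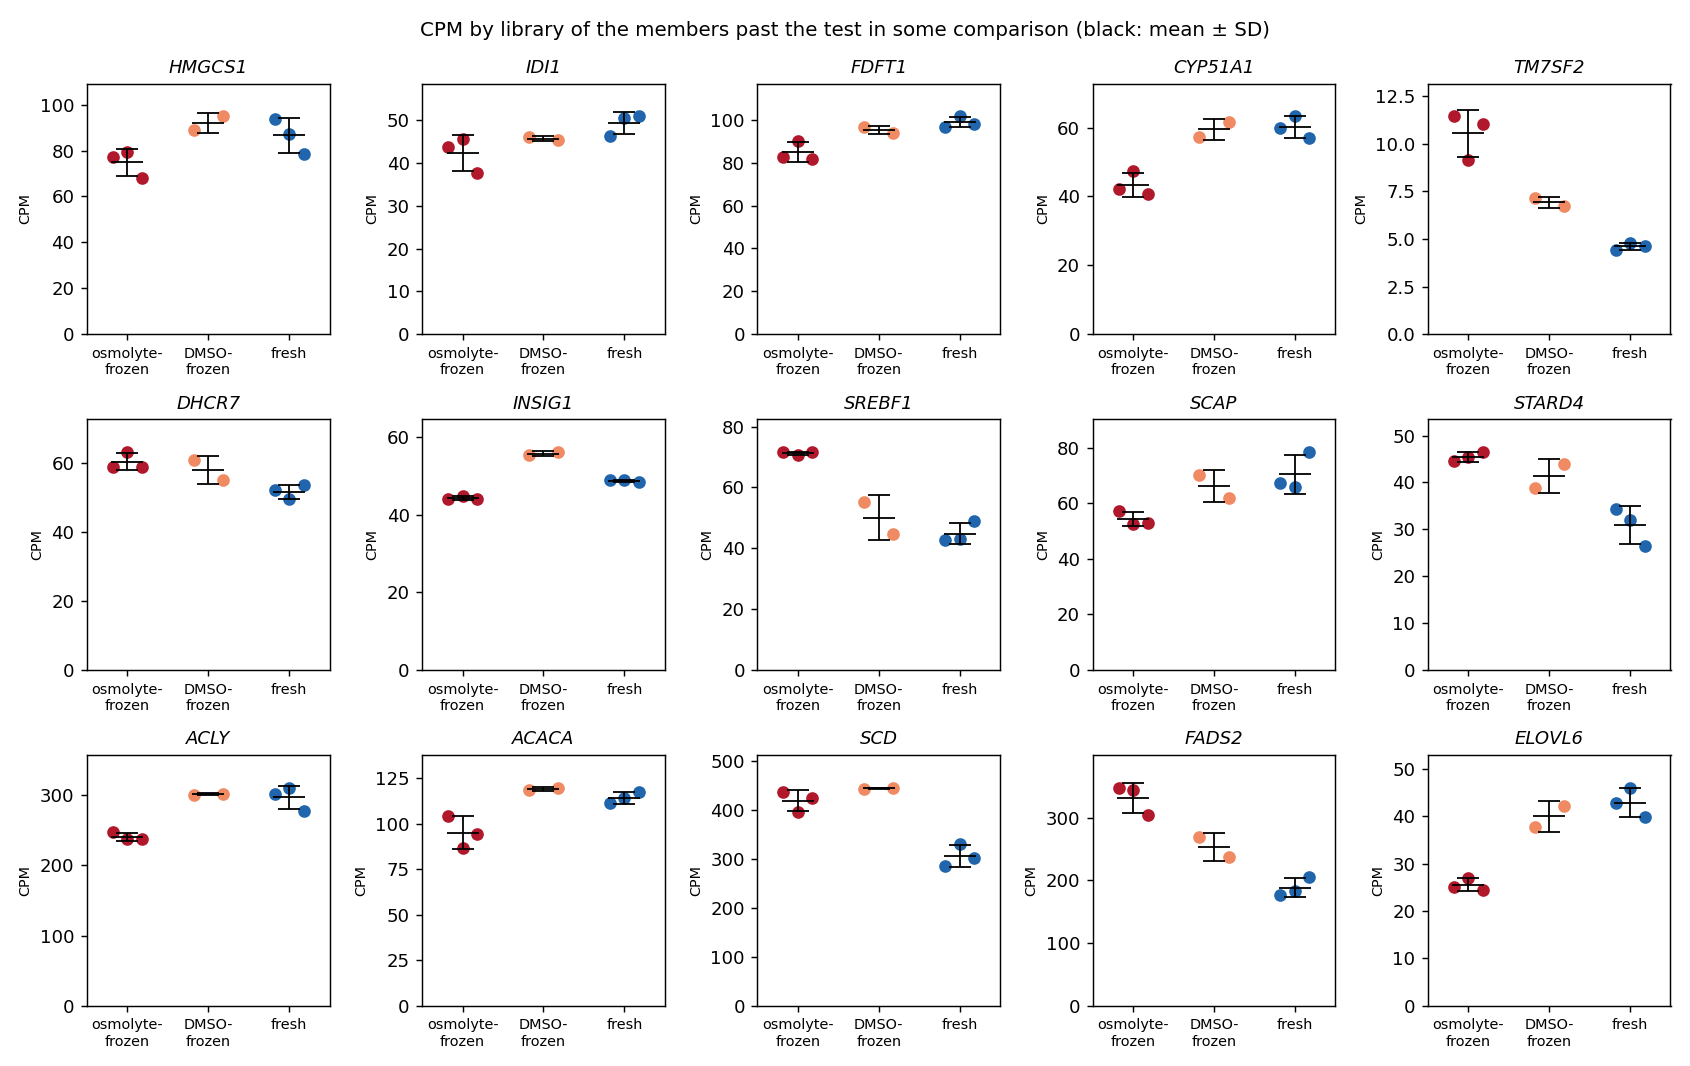
CPM by library of the 15 members that passed the test in at least 1 comparison, with axes from 0. Points are libraries, and black lines are mean ± SD of 3 osmolyte-frozen, 2 DMSO-frozen and 3 fresh libraries. TM7SF2 and FADS2 form 3 steps, SCD and STARD4 are high in both frozen groups, and ELOVL6 and CYP51A1 are low in osmolyte-frozen cells.

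In the fatty acid branch, ACLY, ACACA and ELOVL6 were lower and FADS2 was higher in osmolyte-frozen than in DMSO-frozen cells, and the other 5 of the 9 genes passed no test there. ELOVL6 (chromosome 4, 110970229 to 111119820), which extends palmitate to stearate, had 25.0, 27.1 and 24.5 CPM in osmolyte-frozen, 37.7 and 42.2 in DMSO-frozen and 42.8, 46.0 and 40.0 in fresh cells. All osmolyte-frozen libraries were well below the other 5. ELOVL6 was 1.57-fold lower than in DMSO-frozen cells (log2 -0.65 ± 0.09, adjusted p = 4.03e-05) and 1.68-fold lower than in fresh cells (log2 -0.75 ± 0.08, adjusted p = 9.37e-07).

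ACLY (chromosome 17, 40023179 to 40075272) had 247.5, 237.4 and 237.2 CPM in osmolyte-frozen, 299.9 and 302 in DMSO-frozen and 301.5, 310 and 277.9 in fresh cells. It was 1.25-fold lower than in DMSO-frozen cells (log2 -0.32 ± 0.08, adjusted p = 0.00486) and 1.23-fold lower than in fresh cells (log2 -0.30 ± 0.07, adjusted p = 0.00244). ACACA (chromosome 17, 35441927 to 35766902), the acetyl-CoA carboxylase that makes malonyl-CoA, had 104.2, 86.4 and 94.6 CPM in osmolyte-frozen, 118.3 and 119.6 in DMSO-frozen and 111.1, 113.9 and 117.4 in fresh cells. For ACLY and ACACA alike, the osmolyte-frozen libraries lay below the other 5. ACACA was 1.25-fold lower than in DMSO-frozen cells (log2 -0.32 ± 0.09, adjusted p = 0.00764) and 1.20-fold lower than in fresh cells (log2 -0.26 ± 0.08, adjusted p = 0.0102). Without DMSO 0 h, the calls against DMSO-frozen cells were lost for ACLY (adjusted p = 0.0532) and ACACA (0.0654).

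FADS2 (chromosome 11, 61595713 to 61634825) had 347.1, 343.4 and 304.2 CPM in osmolyte-frozen, 269.2 and 237.8 in DMSO-frozen and 176, 183.2 and 205.9 in fresh cells. The groups formed 3 steps with no overlap. FADS2 was 1.76-fold higher in osmolyte-frozen than in fresh cells (log2 0.82 ± 0.08, adjusted p = 4.12e-07) and 1.31-fold higher than in DMSO-frozen cells (log2 0.39 ± 0.09, adjusted p = 0.00438). DMSO-frozen cells were 1.35-fold above fresh cells (log2 0.43 ± 0.09, adjusted p = 0.0158). The call against DMSO-frozen cells was lost without DMSO 0 h (adjusted p = 0.115), and that of DMSO-frozen against fresh cells without DMSO 1 h (0.278), fresh 0 h (0.0604) or fresh 1 h DMSO (0.0518). FADS1, the delta-5 desaturase 11183 bases away, averaged 122.3 ± 3.67 CPM in osmolyte-frozen, 135.3 ± 0.934 in DMSO-frozen and 119.8 ± 6.01 in fresh cells (SD, n = 3, 2 and 3) and passed no test. FADS3, 6172 bases away on the other side and no member of the list, was 1.41-fold higher in osmolyte-frozen than in DMSO-frozen cells, at 66.4 ± 2.16 CPM in osmolyte-frozen against 47.2 ± 0.145 CPM in DMSO-frozen cells (log2 0.49 ± 0.09, adjusted p = 3.81e-04).

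SCD (chromosome 10, 102106772 to 102124588) was higher after freezing in either solution, with 437.1, 395.2 and 424.1 CPM in osmolyte-frozen, 443.7 and 445.2 in DMSO-frozen and 285, 330.7 and 302.7 in fresh cells. Every frozen library was above every fresh one. SCD was 1.37-fold higher in osmolyte-frozen than in fresh cells (log2 0.45 ± 0.08, adjusted p = 1.09e-04) and 1.45-fold higher in DMSO-frozen cells than in fresh ones (log2 0.54 ± 0.08, adjusted p = 0.00102). Osmolyte-frozen and DMSO-frozen cells did not pass the test against each other (log2 -0.09 ± 0.08, adjusted p = 0.463). SCD and FADS2 each have 1 annotated pseudogene.

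FASN, the fatty acid synthase, averaged 179.7 ± 18.2 CPM in osmolyte-frozen, 201.2 ± 35.5 in DMSO-frozen and 200.6 ± 6.95 in fresh cells and passed no test. ACSS2 was the steadiest member, at 46.1 ± 2.22 CPM in osmolyte-frozen, 44.6 ± 1.78 in DMSO-frozen and 46.0 ± 0.442 in fresh cells. LPIN1, a phosphatidate phosphatase of glycerolipid synthesis, averaged 40.8 ± 4.19 CPM in osmolyte-frozen, 49.7 ± 1.62 in DMSO-frozen and 39.4 ± 7.47 in fresh cells, with an adjusted p of 0.113 between osmolyte-frozen and DMSO-frozen cells. ABCA1, which exports cholesterol to apolipoprotein A-I, averaged 41.2 ± 5.199 CPM in osmolyte-frozen, 38.4 ± 1.33 in DMSO-frozen and 34.8 ± 6.37 in fresh cells and passed no test.

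Since several of these genes also rise in fat cells, 8 adipocyte markers were read alongside them. Their summed level was 7.72 to 11.7 CPM in osmolyte-frozen, 11.1 to 12.8 in DMSO-frozen and 13.6 to 17.2 in fresh libraries. FABP4, LEP and CIDEC were too low to test, with FABP4 at 0 in every DMSO-frozen and fresh library. Of the 5 tested, PPARG alone changed, at 3.85 ± 0.211 CPM in osmolyte-frozen, 7.19 ± 0.832 in DMSO-frozen and 9.81 ± 0.826 in fresh cells (log2 -0.90, adjusted p = 1.29e-04 against DMSO-frozen and log2 -1.35, adjusted p = 1.70e-07 against fresh cells). Among the 8, PPARG alone rose in mean level from osmolyte-frozen through DMSO-frozen to fresh cells, as the sum did. Against fresh cells, CFD (log2 0.93, adjusted p = 0.0645) and ADIPOQ (log2 0.53, adjusted p = 0.197) leaned higher in osmolyte-frozen cells. PLIN1 stood at log2 0.05 and PLIN4 at log2 -0.26 in that comparison.

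Other genes of the routes were read as 2 lists. Of 18 further sterol genes, osmolyte-frozen cells had 1 higher and 6 lower than DMSO-frozen cells and 1 higher and 6 lower than fresh cells. Over all genes, 13.1% were higher and 16.2% lower against DMSO-frozen cells, and 18.6% were higher and 20.7% lower against fresh cells. None of the 18 passed the test between DMSO-frozen and fresh cells, where 1.82% of all genes did. Their median log2 fold change between osmolyte-frozen and DMSO-frozen cells was -0.12. MBTPS2, the second protease that frees the SREBPs, was 1.76-fold lower, at 27.8 ± 1.67 CPM in osmolyte-frozen against 48.9 ± 2.46 CPM in DMSO-frozen cells (SD, n = 3 and 2; log2 -0.81 ± 0.09, adjusted p = 6.36e-06). LIPA, the lysosomal lipase that frees cholesterol from its esters, was 1.39-fold lower, and SOAT1, which makes those esters, 1.31-fold lower. NPC2, which hands cholesterol out of the lysosome, was 1.43-fold higher, at 79.2 ± 6.46 CPM in osmolyte-frozen against 55.6 ± 1.19 CPM in DMSO-frozen cells (log2 0.51 ± 0.09, adjusted p = 3.69e-04).

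Of 20 further fatty acid genes, 19 were tested, and osmolyte-frozen cells had 2 higher and 8 lower than DMSO-frozen cells, with a median log2 fold change of -0.13, and 1 higher and 6 lower than fresh cells. Changes in either direction were called for 29.3% of all genes against DMSO-frozen cells and for 39.4% against fresh cells. None of the 19 passed the test between DMSO-frozen and fresh cells, where 1.82% of all genes did. ACSL4, which activates arachidonate and other polyunsaturated fatty acids, was 1.58-fold lower, at 196.9 ± 11.9 CPM in osmolyte-frozen against 311 ± 16.4 in DMSO-frozen cells (log2 -0.66 ± 0.09, adjusted p = 2.79e-05). GPAM, which starts glycerolipid synthesis, was 1.55-fold lower, ME1, the malic enzyme that supplies NADPH, 1.32-fold lower, and LPIN2, a paralogue of LPIN1, 1.32-fold lower. AGPAT2, an acyltransferase of the same route, was 1.304-fold higher (adjusted p = 0.0446). MLXIPL was at or near 0 and was not tested.

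Conditions within a group could be set side by side only as single libraries, with no test. Between the fresh 1 h DMSO and fresh 1 h medium libraries, 0 of 30 members were 1.5-fold apart, where 12.1% of all genes were. The median absolute log2 ratio was closer, at 0.153 over the members and 0.172 over all genes. The widest member was LPIN1, at 47.6 CPM with DMSO and 33.2 CPM in medium. EBP came next and ran the other way, at 15.4 CPM with DMSO and 20.7 CPM in medium, followed by ABCA1, at 36.8 CPM with DMSO and 27.6 CPM in medium. Between DMSO-frozen cells held for 1 h and for 0 h, 0 of 30 members were 1.5-fold apart, where 9.54% of all genes were. The median absolute log2 ratio there was 0.1 over the members and 0.13 over all genes. FASN differed most, at 226.3 CPM after 1 h and 176.1 CPM after 0 h.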

How the data were processed

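Per the labels' protocols, the miRNeasy kit yielded the RNA and libraries followed standard Illumina steps. The submitters' processing notes list hg19 as the build, HTSeq, CASAVA 1.9 and TopHat, the last under version 12.0.6. Annotation release, strand setting and mate counting were not given in the sources used here. Per the file headers, the table pairs a count with an RPKM value in each library. Counts were used as the authors deposited them. All of them are even, with 0 odd values, and no source says why, so halved counts were an alternative. RPKM values, as deposited, are per kilobase of the deposited coding length and scaled to a library total above the sum of the counts. They were used only to compare levels between genes. The counts summed to 64.03 to 66.89% of that total in osmolyte-frozen, 72.12 to 73.03% in DMSO-frozen and 66.15 to 70.36% in fresh libraries. The part of this difference in the results was not tested. Positions are those deposited in hg19. Of 49 repeated identifiers, 41 were identical and kept once and 8 were kept apart, which left 23354 of 23398 entries. No row stood for reads without a gene.

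Groups came from the sample titles. Genes passing filterByExpr by group (15924) went into edgeR 4.0.16 (R 4.3.3): TMM scaling, all 3 groups in 1 fit (5 residual degrees of freedom), glmQLFit with robust estimation, glmQLFTest, and Benjamini-Hochberg adjustment at 0.05 over all genes tested. The biological coefficient of variation was 0.0974. SE is the absolute log2 fold change over the square root of F. CPM uses TMM-scaled totals, given as mean ± SD. Single libraries were compared by log2 CPM with a prior count of 2 at 1.5-fold. The limit for a count of 0 is 3 counted units of 2 counts each and covers counting error only. The fitting steps were tested on simulated data, drawn with the same dispersion for all genes. The simulation had neither even-only counts nor differences between conditions within a group, so it does not cover those features of the data.

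The member list, further gene lists and marker lists were chosen with earlier results of these data known. Members passing a test in any comparison were given by library. Further genes were named when changed and at least 1.3-fold apart between osmolyte-frozen and DMSO-frozen cells, and FADS3 also as the neighbour of FADS2. A few genes of these lists are not reported here and were left out of the list counts. Alternatives were DESeq2 (1.42.0) size factors or test, library totals, filters, halved counts, only the 2 groups compared, and leaving out each library.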

Additional observations from a re-analysis of the deposited data

How the results depend on the processing

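Of the 28 changes of members reported over the 3 comparisons, 16 passed the test under all 15 alternatives and 0 changed direction. The other 62 pairs of member and comparison did not pass; 18 of these took the other sign under some alternative, none of them past the threshold there, and 9 passed under some alternative. Between osmolyte-frozen and fresh cells, 3 rather than 5 sterol branch members were lower with library totals, with group means of at least 50 counts, and with only the 2 groups compared. Between DMSO-frozen and fresh cells, 0 rather than 2 sterol branch members were higher with library totals or with only the 2 groups compared. There, DESeq2's test called 494 rather than 290 genes, and 328 rather than 194 were higher; with no filter, 295 were higher. The cause was not tested. With each library left out in turn, the calls between osmolyte-frozen and DMSO-frozen cells ranged from 2122 (without DMSO 0 h) to 5254 genes, against 4670, and the higher ones from 780 (without DMSO 0 h) to 2373, against 2091 (1391 without SGC and 1383 without DMSO 1 h). Sterol branch members numbered 2 to 3 higher and 2 (without SGI) to 4 lower, and fatty acid members 0 (without DMSO 0 h) to 1 higher and 1 (without DMSO 0 h) to 4 lower. Between osmolyte-frozen and fresh cells these were 5019 to 6100 genes and 2344 to 2888 higher. There 3 to 7 (without fresh 1 h medium) sterol branch members were higher and 2 (without SGI or fresh 1 h DMSO) to 6 lower, with 2 fatty acid members higher and 3 lower each time. Between DMSO-frozen and fresh cells they were 99 (without DMSO 1 h) to 310 genes, 106 without DMSO 0 h, and 63 (without DMSO 1 h) to 218 higher, 86 without DMSO 0 h. There 0 to 2 sterol branch members and 1 (without DMSO 1 h or fresh 0 h) to 2 fatty acid members were higher and 0 lower; of the sterol branch, 1 was left without SGI or fresh 0 h and 0 without DMSO 1 h, DMSO 0 h, fresh 1 h DMSO or fresh 1 h medium. A lone DMSO-frozen library was assumed to vary like the other groups. No paired analysis was possible because the replicate numbers only name libraries of different conditions. ABCG1 was below what this depth can measure.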
